A study of Mus musculus with 9 samples.

Results

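Splicing and RNA-binding regulators of the Ptbp, Elavl and Nova families were examined in the dorsal telencephalon of mouse embryos, from which the cerebral cortex forms, at E13.5 (the stage in days of embryonic life). The members were listed by Ensembl identifier with their symbols, and 5 of the 6 listed identifiers (Ptbp1, ENSMUSG00000006498_at; Elavl2, ENSMUSG00000008489_at; Elavl3, ENSMUSG00000003410_at; Elavl4, ENSMUSG00000028546_at; and Nova1, ENSMUSG00000021047_at) were among the 12188 genes of the deposited table. Array values of Ptbp2 were not analysed here. The pairing of these symbols with identifiers comes from that list, since the table itself carries identifiers alone. RNA came from 5 embryos labelled as Dicer knockouts (replicates 5, 7, 9, 10 and 11) and 4 labelled as controls (replicates 1 to 4), all C57Bl6/J, with 1 array per embryo. Dicer cuts microRNA precursors into mature microRNAs, and the labels describe the knockout samples as lacking microRNAs. The series title calls the knockout conditional. The Cre driver is not given in the sources used here, and the control titles begin with HTZ, an abbreviation the labels do not spell out, so the controls are not taken to be wild type. All 5 knockouts and controls 3 and 4 were labelled male, and controls 1 and 2 female. Embryos were partly littermates, but the sources used here do not say which, so p-values treat the 9 embryos as independent. The levels of Dicer1 and of markers of the dorsal telencephalon were not analysed here, because the remaining identifiers could not be paired with symbols.

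PTBP1 is a polypyrimidine-tract binding protein of neural progenitors and non-neural cells that represses the inclusion of many neuronal exons, including one that its paralogue Ptbp2 needs for a stable messenger RNA. During neuronal differentiation PTBP1 gives way to PTBP2, and miR-124, a microRNA of neurons, is reported to target the Ptbp1 messenger RNA. ELAVL2, ELAVL3 and ELAVL4 are the neuronal Hu proteins, which bind U-rich and AU-rich elements, stabilise messenger RNAs and influence splicing, and they are widely used as markers of young neurons. NOVA1 is a KH-domain protein that regulates splicing in neurons. A gene-level array value sums over isoforms, so exon inclusion, which these proteins regulate or influence, was not read here.

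The promoter sequences below give the genomic context of the member that passed the test of genotype (Ptbp1), of the pair whose difference separated the genotypes (Elavl2 and Elavl4), and of the member with the widest spread among knockouts (Elavl3). Each runs 5′ to 3′ from 250 bases before to 50 bases after an annotated start in RefSeq on GRCm38.p6. All 5 members, and Ptbp2, matched by symbol. Ptbp1, Ptbp2, Elavl3 and Nova1 have 1 window each. Elavl2 has 6 and Elavl4 has 4, of which the one listed first is shown. The windows are chr10:79854182-79854481 on the plus strand and chr4:91399935-91400234, chr9:22051974-22052273 and chr4:110351862-110352161 on the minus strand. Capitals mark matches on either strand to the E-box CAGCTG, the CCAAT box, the GC box GGGCGG or TATAAA.
Ptbp1: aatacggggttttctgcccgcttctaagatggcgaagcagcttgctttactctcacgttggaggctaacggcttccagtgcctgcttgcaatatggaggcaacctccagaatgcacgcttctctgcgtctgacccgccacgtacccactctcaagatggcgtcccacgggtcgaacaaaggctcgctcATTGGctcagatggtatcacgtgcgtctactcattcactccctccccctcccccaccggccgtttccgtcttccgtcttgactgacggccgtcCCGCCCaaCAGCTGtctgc
Elavl2: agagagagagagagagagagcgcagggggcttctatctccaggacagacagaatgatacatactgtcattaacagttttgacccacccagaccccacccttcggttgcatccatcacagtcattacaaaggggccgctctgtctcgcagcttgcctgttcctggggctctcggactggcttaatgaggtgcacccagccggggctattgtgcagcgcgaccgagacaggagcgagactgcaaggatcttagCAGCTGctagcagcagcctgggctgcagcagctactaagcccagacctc
Elavl3: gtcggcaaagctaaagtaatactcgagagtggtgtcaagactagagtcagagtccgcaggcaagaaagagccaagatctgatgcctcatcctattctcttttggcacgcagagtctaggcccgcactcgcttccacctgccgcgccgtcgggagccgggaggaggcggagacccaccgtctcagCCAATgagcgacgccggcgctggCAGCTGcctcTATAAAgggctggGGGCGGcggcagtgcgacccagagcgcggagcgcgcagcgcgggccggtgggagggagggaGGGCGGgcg
Elavl4: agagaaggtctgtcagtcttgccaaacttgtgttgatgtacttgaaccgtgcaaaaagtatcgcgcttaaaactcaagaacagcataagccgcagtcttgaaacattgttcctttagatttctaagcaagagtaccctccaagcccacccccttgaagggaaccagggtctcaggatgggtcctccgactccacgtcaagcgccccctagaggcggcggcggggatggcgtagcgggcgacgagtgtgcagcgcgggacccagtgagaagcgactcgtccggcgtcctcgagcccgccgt

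CAGCTG, a form of E-box recognised by basic helix-loop-helix factors, occurred in at least 1 window of 5 of 5 members (3 of 6 windows of Elavl2 and 2 of 4 of Elavl4), against 16.3% of the 32817 mouse windows. The members with several windows had more chances of a match than a single window has. Ptbp2, the listed gene whose array values were not analysed, lacked this E-box in its window (0 of 1). The E-box was therefore not common to all 6 listed genes. The Ptbp2 window held the GC box (1 of 1) and neither of the other motifs searched (0 of 1 each). CCAAT was found for 4 of 5 members and in 37.4% of all windows, and GGGCGG for 3 of 5 and in 35.6%. Elavl4 held GGGCGG in 0 of its 4 windows, whereas Elavl2 held it in 5 of 6. Several windows of Elavl2, and of Elavl4, overlap on the genome, so the same site can be counted in more than 1 window. TATAAA was found in Elavl3 alone of the 5, and in 13.6% of all windows. Matches of GGGCGG can overlap each other, and its reverse complement CCGCCC can share its last bases with CCAAT. Matches describe these letters only, and the arrays carry no measurement of promoter activity or of the start used.

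One control array stood apart before any gene was considered. Control 4 differed from the mean of the other controls by a median of 0.163 log2 units over all genes and by at least 1 log2 unit at 448 genes, against medians of 0.0874 to 0.112 and 14 to 30 genes for controls 1 to 3. For the knockouts these figures ran from 0.085 to 0.153 and from 5 to 64 genes. Control 4 lay outside the range of controls 1 to 3 at 4 of the 5 members, so each difference between genotypes below is also given without it. The share of all genes at which this held was not computed, and any control is the lowest or highest at some genes. No detection call came with the table. All 5 members were above the median of the genes' mean values. In bulk tissue fewer cells of a type and less RNA per cell cannot be told apart.

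**Figure D1:**
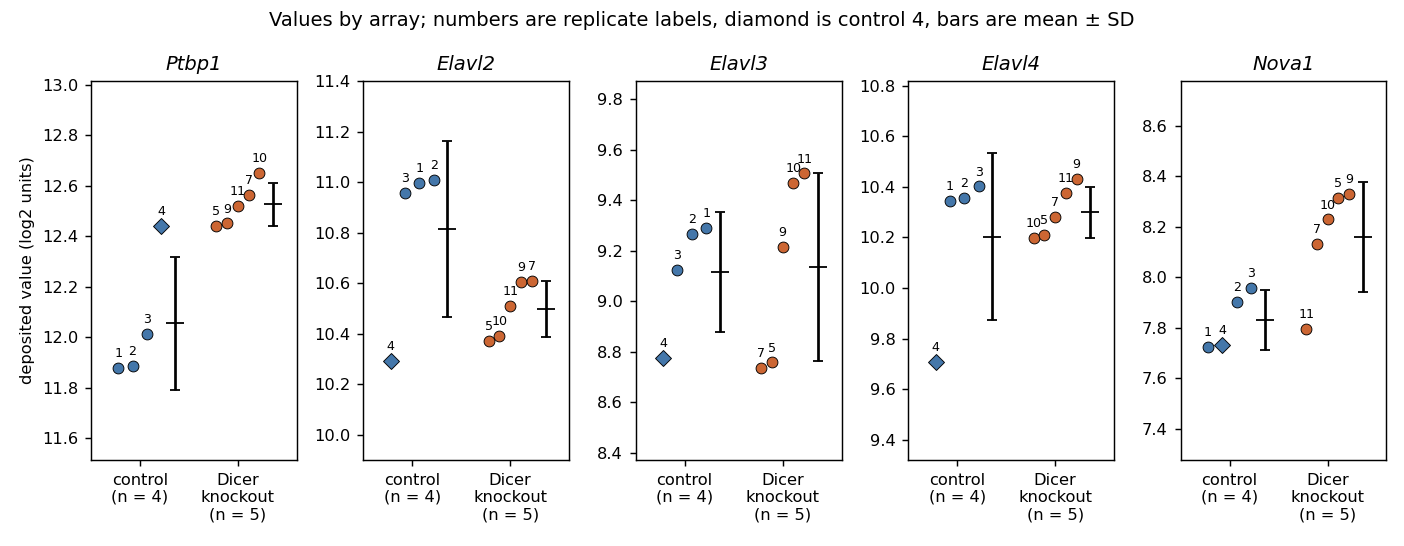
Deposited log2 values of the 5 members on each array (vertical axis, the same span of 1.5 log2 units in each panel), with control and Dicer knockout embryos side by side, replicate labels above the points, control 4 as a diamond and bars for mean ± SD. Control 4 lies with or beyond the knockouts at Ptbp1 and Elavl2, and below them at Elavl4.

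Ptbp1, the repressor of neuronal exons, was higher on average in the Dicer knockouts, all male, than in the controls of both sexes. Its log2 value was 11.88, 11.89, 12.01 and 12.44 in controls 1 to 4 and 12.44, 12.57, 12.45, 12.65 and 12.52 in knockouts 5, 7, 9, 10 and 11. Controls 1 to 3 lay below every knockout, and control 4 had the same value as the lowest knockout, replicate 5. The mean was 12.53 ± 0.087 (SD, n = 5) in the knockouts and 12.06 ± 0.27 (SD, n = 4) in the controls, a log2 difference of 0.47 (SE 0.11, 95% interval 0.22 to 0.73) or 1.39-fold. It passed the test across all genes (limma, two-sided, Benjamini-Hochberg adjusted p = 0.0147), and an exact two-sided permutation test over all splits of the arrays gave p = 0.0159, where 0.00794 is the smallest possible. Without control 4 the difference was 0.60 (SE 0.073, limma adjusted p = 0.000997). Without control 1 it was 0.41 and no longer passed (limma adjusted p = 0.0507). Against the control males, in the 3-group fit described below, it was 0.30 and did not pass (limma adjusted p = 0.119).

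Ptbp1 was the only member of the 5 that passed, whereas 24.6% of all genes passed in either direction and 11% were called higher in the knockout, so 1 of 5 is close to the background. The knockout and control values overlapped or touched at 5 of 5 members, where 24.1% of all genes had groups that did not. With control 4 left out 2 of 5 members passed, Ptbp1 and Elavl2, against 26.8% of all genes. The same members were the 2 of 5 whose knockouts did not overlap controls 1 to 3, a separation found at 33.1% of all genes. The size of the Ptbp1 difference was equal to or larger than that of 88.8% of the genes.

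Elavl2 (HuB) was lower in all knockouts than in controls 1 to 3, but control 4 was lower still. Its log2 value was 10.997, 11.01, 10.96 and 10.29 in controls 1 to 4 and 10.37, 10.61, 10.61, 10.39 and 10.51 in knockouts 5, 7, 9, 10 and 11. Controls 1 to 3 stood close together, with an SD of 0.027, and control 4 held the lowest value of the 9 arrays. With all controls the means were 10.50 ± 0.11 (SD, n = 5) and 10.81 ± 0.35 (SD, n = 4), and the log2 difference of -0.32 (SE 0.14, 95% interval -0.64 to 0.0049) did not pass (limma adjusted p = 0.143; exact two-sided permutation p = 0.103). Without control 4 the difference was -0.49 (SE 0.076) and passed (limma adjusted p = 0.00238). Whether Elavl2 counts as changed thus rested on a single control array.

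Elavl4 (HuD) had a difference close to 0 between genotypes. Its log2 value was 10.34, 10.36, 10.40 and 9.71 in controls 1 to 4 and 10.21, 10.28, 10.43, 10.20 and 10.38 in knockouts 5, 7, 9, 10 and 11. Knockouts and controls 1 to 3 overlapped, and control 4 was again the lowest of all arrays. The means were 10.30 ± 0.10 (SD, n = 5) in the knockouts and 10.20 ± 0.33 (SD, n = 4) in the controls. The log2 difference was 0.10 (SE 0.14, 95% interval -0.21 to 0.40; limma adjusted p = 0.655) and became -0.07 without control 4, so its sign followed that array.

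Elavl3 (HuC) was spread widely among the knockouts. Its log2 value was 9.29, 9.27, 9.12 and 8.77 in controls 1 to 4 and 8.76, 8.74, 9.21, 9.47 and 9.51 in knockouts 5, 7, 9, 10 and 11. Knockouts 5 and 7 shared the low level of control 4, knockout 9 lay among controls 1 to 3, and knockouts 10 and 11 exceeded every control. The means were 9.14 ± 0.37 (SD, n = 5) and 9.11 ± 0.24 (SD, n = 4), with a log2 difference of 0.02 (SE 0.19, 95% interval -0.39 to 0.44; limma adjusted p = 0.945). The SD among knockouts was equal to or larger than that of 96.6% of the genes. On the same ranking Nova1 stood at 81.6%, and Ptbp1, Elavl2 and Elavl4 at 22.5%, 37.6% and 31.3%. Leaving out control 4 or knockout 7 moved the difference to -0.09 or 0.12, and neither passed.

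The 3 Elavl paralogues were also set against each other on the same array, to ask whether they changed unequally. A shift common to them, such as their shared low value in control 4, cancels there. The offset between probe sets is arbitrary, so the difference between genotypes is meaningful here and the level of one gene against another is not. The log2 value of Elavl4 minus that of Elavl2 was -0.65, -0.65, -0.56 and -0.58 in controls 1 to 4 and -0.16, -0.33, -0.17, -0.19 and -0.13 in knockouts 5, 7, 9, 10 and 11. Control 4 lay inside the range of the other controls, and the lowest knockout lay above the highest control. The mean was -0.20 ± 0.075 (SD, n = 5) in the knockouts and -0.61 ± 0.049 (SD, n = 4) in the controls. Elavl4 thus gained 0.41 log2 units relative to Elavl2. Taken singly, Elavl2 differed by -0.32 and Elavl4 by 0.10, or by -0.49 and -0.07 without control 4. The exact two-sided permutation test gave p = 0.00794, the smallest it can give, and 0.0238 after Benjamini-Hochberg adjustment over the 3 pairs compared, with all 5 knockouts above all 4 controls. How often pairs of other genes separate in this way was not computed. Among single genes, 24.1% had groups that did not overlap, so the separation is not shown to be particular to this pair. Without control 4 the gain was 0.42 (exact permutation p = 0.0179, the smallest that 5 against 3 arrays can give, and 0.0536 adjusted over the 3 pairs). Groups that do not overlap with all arrays cannot overlap with fewer, so this separation adds no support.

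**Figure D2:**
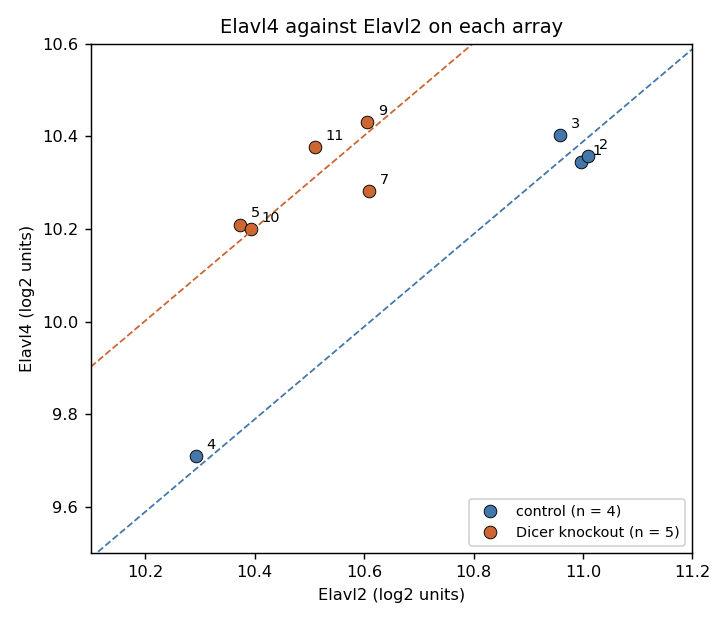
Elavl4 (vertical axis, log2 units) plotted against Elavl2 (horizontal axis, log2 units) on each array, with replicate labels and dashed lines of slope 1 at the mean Elavl4 minus Elavl2 difference of each genotype (-0.20 in knockouts, -0.61 in controls). Control 4 is low in both genes yet sits on the line of the controls.

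The pairs with Elavl3 gave no such separation. Elavl3 minus Elavl2 was -1.36 ± 0.40 (SD, n = 5) in the knockouts and -1.70 ± 0.13 (SD, n = 4) in the controls, a difference of 0.34 (exact permutation p = 0.19, adjusted over the 3 pairs 0.286). Elavl4 minus Elavl3 differed by 0.07 (exact permutation p = 0.706, adjusted over the 3 pairs 0.706). Without control 4 these differences were 0.40 and 0.02 (exact permutation, adjusted p = 0.268 and 0.946). With all arrays both were smaller than the SD among the knockouts, which ran to 0.40 and 0.35.

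Nova1 was higher in 4 of the 5 knockouts than in any control but missed the threshold. Its log2 value was 7.72, 7.90, 7.96 and 7.73 in controls 1 to 4 and 8.31, 8.13, 8.33, 8.23 and 7.80 in knockouts 5, 7, 9, 10 and 11. Knockout 11 lay among the controls, and control 4 was not set apart here. The means were 8.16 ± 0.22 (SD, n = 5) and 7.83 ± 0.12 (SD, n = 4), a log2 difference of 0.33 (SE 0.11, 95% interval 0.08 to 0.58) or 1.26-fold. The limma adjusted p was 0.0571 and the exact two-sided permutation p was 0.0397. Without knockout 11 the difference was 0.42 (SE 0.083) and passed (limma adjusted p = 0.0113). Without control 4 it was 0.30 (limma adjusted p = 0.1).

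**Figure D3:**
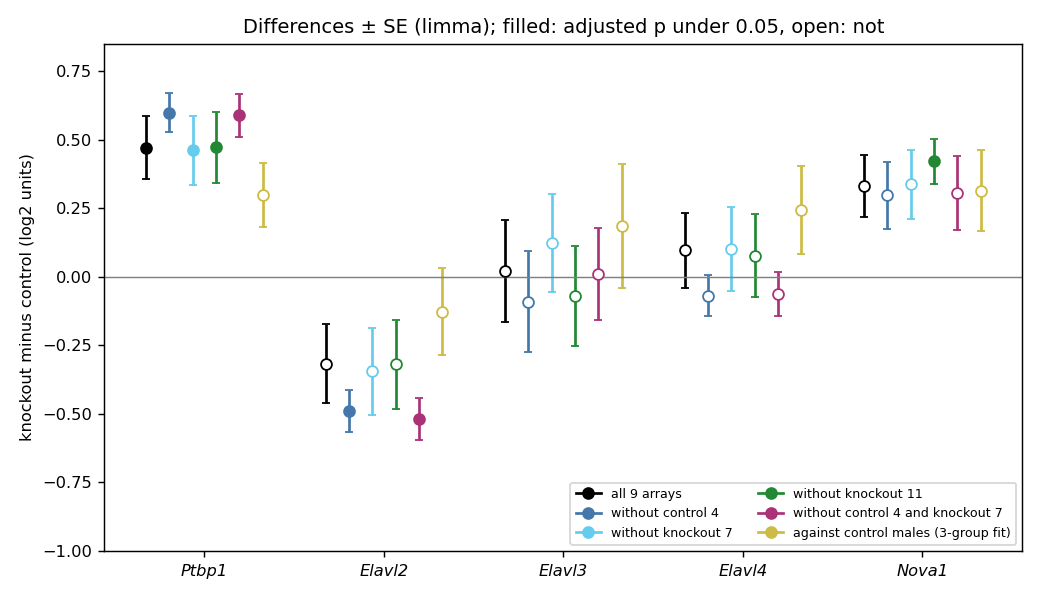
Difference between knockout and control (vertical axis, log2 units, ± SE from limma) of the 5 members, with all 9 arrays, with named arrays left out, and against the control males in the 3-group fit. Filled points passed an adjusted p under 0.05: Ptbp1 in every setting shown but the comparison with control males, Elavl2 where control 4 was left out, and Nova1 where knockout 11 was left out.

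All knockouts were labelled male, so the comparison was repeated against control males in a limma fit of 3 groups with a shared spread. With both control males no member passed (0 of 5, where 10.5% of all genes did). Ptbp1 had a log2 difference of 0.30 (SE 0.12, 95% interval 0.037 to 0.56; limma adjusted p = 0.119, unadjusted p = 0.0295). This value depended on which control male was used, at 0.085 without control 3 (limma adjusted p = 0.624) and 0.51 without control 4 (limma adjusted p = 0.0675). Its male controls, replicates 3 and 4, averaged 12.23 and its female controls 11.88. Nova1 differed by 0.31 (SE 0.15, limma adjusted p = 0.183), by 0.43 without control 3 and by 0.20 without control 4. The difference was -0.13 (SE 0.16) for Elavl2, 0.19 (SE 0.23) for Elavl3 and 0.24 (SE 0.16) for Elavl4, with limma adjusted p between 0.331 and 0.619. The signs of Elavl2 and Elavl4 turned with the control male left out. Elavl2 was at 0.21 without control 3 and -0.46 without control 4 (limma adjusted p = 0.262 and 0.089), and Elavl4 at 0.59 and -0.10 (limma adjusted p = 0.0102 and 0.676). Elavl3 was at 0.36 and 0.01. Each of these fits has a lone control male, assumed to vary like the other groups. With control 4 as 1 of only 2 control males, their mean mixes the sex of the controls with the array that stands apart. Without it only control 3 is left as a control male, so the part of sex apart from that array was not tested.

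Between the control males and the control females no member passed in the same limma fit (0 of 5), nor did any of the 12188 genes (0%), although 869 genes had an unadjusted p under 0.05. Ptbp1 was 0.35 log2 units higher in the males (SE 0.14, limma unadjusted p = 0.0334, adjusted p = 0.676). Elavl2, Elavl3 and Elavl4 were 0.38, 0.33 and 0.30 lower on the mean of the males, with limma adjusted p of 0.676, 0.774 and 0.715, and Nova1 differed by 0.03.

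The distance of control 4 from the mean of controls 1 to 3 was 0.52 log2 units at Ptbp1, -0.70 at Elavl2, -0.66 at Elavl4, -0.45 at Elavl3 and -0.13 at Nova1. Its size was equal to or larger than that of 92.3% of the genes for Elavl2, 91.5% for Elavl4, 86.9% for Ptbp1, 84.1% for Elavl3 and 41.9% for Nova1. At Ptbp1 and Elavl2 this displacement ran in the direction of the knockouts, while at Elavl4 it carried control 4 below all of them. The part of tissue composition or stage in this array was not tested.

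Genes with profiles most like those of the members were sought over the 9 arrays by Pearson's r, as a description, since all points share the genotype contrast and control 4. The closest gene of each member had r from 0.96 (Nova1) to 0.993 (Ptbp1). For Ptbp1 it was ENSMUSG00000048277 (r = 0.993, and 0.986 once the group means were removed), at 8.43 ± 0.11 (SD, n = 5) in the knockouts and 7.98 ± 0.28 (SD, n = 4) in the controls, with 8.40 in control 4 (log2 difference 0.45, limma adjusted p = 0.0249). For Elavl2 it was ENSMUSG00000024500 (r = 0.985, and 0.978 without group means), whose log2 difference of -0.58 (SE 0.26) did not pass (limma adjusted p = 0.143). Its value in control 4 was 9.70, against a control mean of 10.65. For Elavl3 it was ENSMUSG00000044237 (r = 0.969, and 0.971 without group means), with 10.54 ± 0.51 (SD, n = 5) in the knockouts and 10.46 ± 0.24 (SD, n = 4) in the controls.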

How the data were processed

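The data are 9 one-colour Affymetrix arrays of total RNA, 5 Dicer knockout and 4 control embryos. The authors deposited processed log2 values, 1 per gene and array, made with the affy package per the submitters' processing notes. The array type, genome build, background correction and normalization, and the package version, are not stated in the sources used here. The log2 scale was read from the values (array medians 7.61 to 7.75), and 24.4% of the genes have the same value on 2 or more arrays. Summarized array signal tends to shrink differences of dim genes. No column lacked a sample (0).

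Knockout and control were compared with limma 3.58.1 in R 4.3.3 (lmFit and eBayes) over all 12188 genes, with no filter, two-sided, and the threshold for a call was 0.05 after Benjamini-Hochberg adjustment. A 3-group fit separated control males from control females. Paralogues were compared within arrays by exact permutation. The planned pair with Ptbp2 was not analysed here, which left 3 pairs. As alternatives, arrays were left out singly or in a pair, the fit was limited to males or given sex as a term, values were rescaled by quantiles or medians, the dimmest 50% of genes were dropped, and array weights or a robust spread with an intensity trend were used. The limma fit and the permutation test were checked on simulated data. Named genes are the members and the gene most like each of the first members in either direction, by identifier because the RefSeq table pairs none. For the same reason the planned lists of other RNA-binding proteins and of cell type markers were not analysed here. Members, lists and tests were chosen with earlier results of these data known. Figures were drawn with matplotlib 3.10.9.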

Additional observations from a re-analysis of the deposited data

Results flagged for a closer look

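At 2 members control 4 stood apart from the other controls by more than Dixon's 95% limit for 4 samples, on the gap to the nearest control as a share of the group's range. At Elavl2 its value of 10.29 log2 units lay below the next control at 10.96, a gap of 0.928 of the range. At Elavl4 its value of 9.71 lay below the next control at 10.34, a gap of 0.916. These were 2 of 10 tests (5 members in 2 groups), and chance passes about 1 in 20 such groups. The 10 tests share arrays. At Ptbp1 and Elavl3 the gap of control 4 was 0.757 and 0.679, under the limit, and no knockout array passed the limit for 5 samples.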

How the results depend on the processing

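No paired analysis was possible because the knockout and control replicates share no numbers and litters are not assigned to embryos. The number of genes called between knockout and control, 2997 with all arrays, was 1285 with sex as a covariate and in the 3-group fit, 324 with males only and 4562 with array weights, and from 1976 to 3263 with 1 array left out. Of the 5 members 1 was called with all arrays, 0 with sex as a covariate, males only or the 3-group fit, 2 with the dimmest 50% left out, with array weights or with both control 4 and knockout 7 left out, and 0 to 2 with 1 array left out. Sex as a covariate and males only gave Ptbp1 a log2 difference of 0.30 (limma adjusted p = 0.119 and 0.172). The 3-group fit makes the same comparison as the sex covariate, because all knockouts are male. Over its 18 alternatives the sign of Ptbp1 was kept, it passed in 14 and the limma adjusted p ran from 0.000188 to 0.172. None of the 14 took sex into account. Elavl2 passed in 3 of 18 (without control 4, without control 4 and knockout 7, and with array weights) and Nova1 in 2 of 18 (dimmest 50% left out, without knockout 11), each with 1 sign throughout. Elavl3 and Elavl4 passed in 0 of 18. Against control males the count was 1285 genes, 29 with array weights and 76 (without control 4) to 2297 (without control 3) with 1 array left out, and 0 to 1 members, the 1 being Elavl4 without control 3, where control 4 is the lone control male and is assumed to vary like the other groups. The gain of Elavl4 on Elavl2 was 0.37 log2 units with males only (exact permutation, adjusted p = 0.143), 0.45 without control 4 and knockout 7 (exact permutation, adjusted p = 0.0857) and 0.40 to 0.45 with 1 array left out. In all 12 alternatives its groups did not overlap, but in the 11 that hold fewer arrays this was fixed by the separation with all arrays. The unadjusted exact permutation p there was the smallest that the number of arrays allows for a single pair (0.0179 to 0.0476). Neither the separation nor a call lost in those 11 says anything about stability. The median of all genes moved by less than 0.1 log2 units under either scaling. No detection call came with the values, so signal over background could not be judged.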
